A study of Mus musculus with 4 samples.

Results

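The genes described here were 10 immediate-early transcription factors of mouse thyroid cells, chosen by name from the 32285 genes listed: Fos, Fosb, Jun, Junb, Jund, Egr1, Atf3, Ier2, Klf4 and Klf6. They were measured by droplet single-cell RNA sequencing of thyroid tissue from wild-type C57BL/6 mice, with 1 library each labelled as 5, 10, 20 and 30 days old. The tissue of several mice was pooled in each library, and the labels name no treatment. In all 4 libraries the tissue was digested with collagenase and dispase in a warm bath and dead cells were removed before capture, and the part of that handling in any value was not tested because no undigested tissue was compared.

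Fos and Jun proteins pair into AP-1, a dimer that binds DNA and drives growth, stress and inflammatory genes. Immediate-early genes are transcribed within minutes of a stimulus without new protein synthesis, and their mRNAs are short-lived. Kinase cascades switch them on through serum response factor and CREB, and warm tissue dissociation is itself a well-known trigger. Fos and Fosb form no stable dimers with themselves and pair mainly with Jun partners, Jun is the strongest activator among these partners, and Junb and Jund are weaker. Atf3 is a stress-induced member of the wider family, Egr1 a zinc-finger factor of growth signalling, Klf4 and Klf6 are Krüppel-like zinc-finger factors, and Ier2 is an immediate-early nuclear protein.

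Levels are UMIs divided by all UMIs of a class, scaled to 1e+06 (CPM), where a UMI is 1 captured transcript end, so values are not scaled by gene length. Of 37503 barcodes listed as cells, 23114 passed the filters, with 2899 to 11210 per library and a median of 2555 to 4233 UMIs. Cells were clustered without the 10 genes or the 80 genes of the related lists, and clusters were named by markers. 14 classes had at least 20 cells in 3 or 4 libraries, 10 of them in all 4, giving 52 class and library sums. The markers of each class were above the mean of the other classes, though 2 of 6 monocyte, 1 of 10 endothelial, 1 of 6 T and 1 of 8 TFC markers were highest in another class. The class named from the mastocyte marker list, the study's Il7r, Gata3 and Rora with Il1rl1 and Areg added here, was led by Csf2, Il1rl1, Areg, Ccl1, Il13, Hilpda, Gata3, Arg1, Stab2 and Il5, with no mast-cell protease among them, so it is called Il1rl1+ Areg+ cells here. In macrophage-like cluster 7 the dendritic markers were as high as the macrophage markers in the libraries labelled day 5 and day 20, and the nerve-like cells of the library labelled day 10 carried more fibroblast than nerve marker UMIs. Clusters whose class markers in a library were under 10% of the level in another library were left unnamed there. By that rule thymocyte-like cells were named only under the labels day 20 and day 30, while the same clusters held 140 and 129 cells under day 5 and 62 and 10 under day 10. It also left the 38 cells of T-like cluster 20 unnamed under day 10, where T-like cells numbered 124 in place of 162. H19, a fetal transcript that falls after birth, stood at 64.1, 523, 70.5 and 1974 CPM in fibroblast-like cells under the labels day 5, 10, 20 and 30, an order that goes against the ages, so libraries are named by label only and no difference between ages was tested. From 12 to 30 barcodes were called cells in both of any 2 libraries. Under the labels day 10, 20 and 30, cell barcodes recurred in each other's matrices at 99.0% to 99.7%, with a median of 8 to 11 UMIs there, and barcodes listed as cells in any library were left out of the droplets described below.

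Test values are the log2 difference of a class from the mean of the other 13 classes ± its standard error, from edgeR's quasi-likelihood test on class sums with the library as a block, and adjusted p is Benjamini-Hochberg over 11717 genes. The libraries served as replicates, although they differ in labelled age, and cells were grouped by expression before this test, so p-values are not fully independent of the grouping. Over all classes, 45 of 140 member differences were higher (background over all genes 24.7%) and 40 were lower (background 11.6%). Classes compared below for overlap were mostly taken from the upper and lower parts of each gene's order. A lack of overlap therefore describes that order and adds no support to it.

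**Figure D1:**
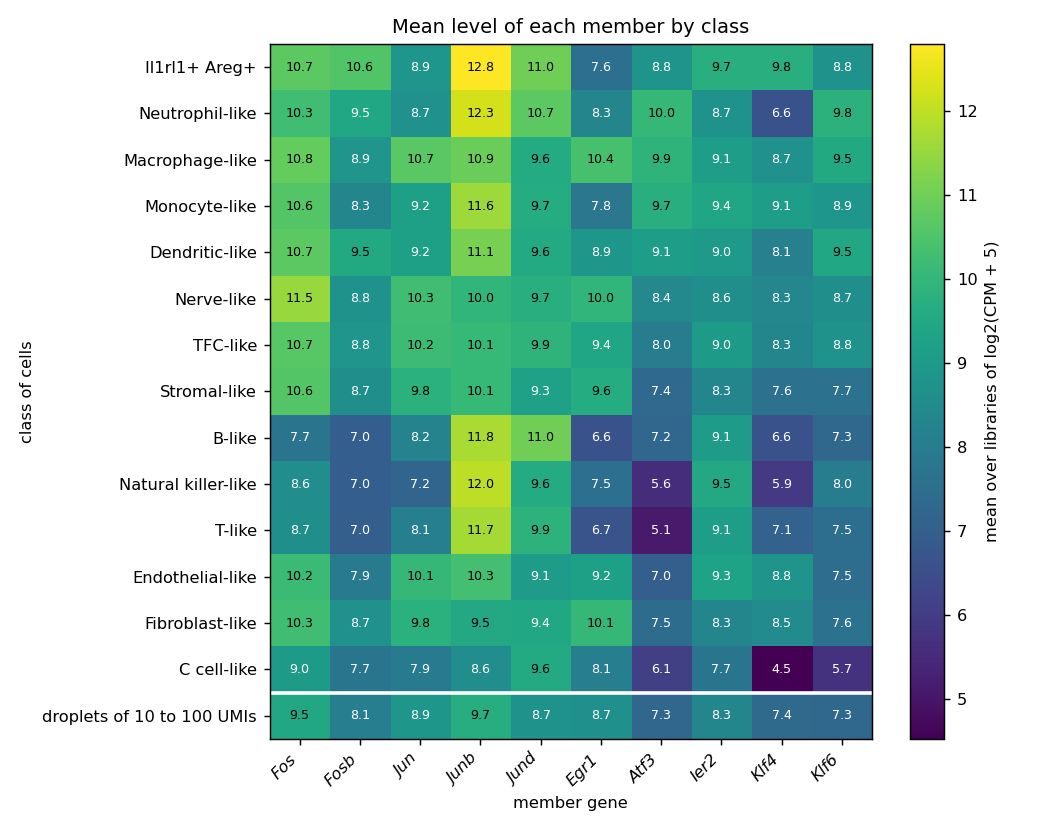
Mean level of each of the 10 genes in each of 14 cell classes and in droplets of 10 to 100 UMIs. Rows are classes, columns are genes, and colour is the mean over libraries of log2(CPM + 5), so a reader can see Junb highest in Il1rl1+ Areg+ cells (7167 CPM) and Egr1 and Jun highest in macrophage-like cells.

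The classes differed in which members they raised. Macrophage-like cells raised 6 of 10 members (background 29.3%), namely Atf3, Egr1, Jun, Klf6, Klf4 and Fos. Il1rl1+ Areg+ cells raised 8 (background 17.7%), led by Fosb, Klf4 and Junb, monocyte-like cells 5 (background 22.4%), and neutrophil-like cells 5 (background 13.1%). Of these, all 6 macrophage-like, 5 Il1rl1+ Areg+, 2 monocyte-like and 4 neutrophil-like calls passed in every alternative that could be run. The median log2 difference of all genes in neutrophil-like cells was -1.03, or -0.03 by DESeq2. Their values are given as tested, not corrected for that shift, and are to be read beside it. TFC-like cells, the thyroid follicular cells, raised 4 members, near their background of 36.9%. Lower calls numbered 6 in B-like cells (background 13.7%), 6 in T-like cells (12.7%), 6 in natural killer-like cells (10.1%), 5 in C cell-like cells (11.5%) and 5 in endothelial-like cells (12.4%). Of these, 5 B-like, 6 T-like, 5 natural killer-like, 1 C cell-like (Junb) and 3 endothelial-like calls passed in every alternative that could be run. In T-like, B-like and natural killer-like cells, Fos and Fosb were lower in every alternative. Egr1 was also lower and Junb higher, except that Egr1 in natural killer-like cells ended without the library labelled day 5 (adjusted p = 0.0704) and Junb in T-like cells ended without the upper limit of UMIs.

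**Figure D2:**
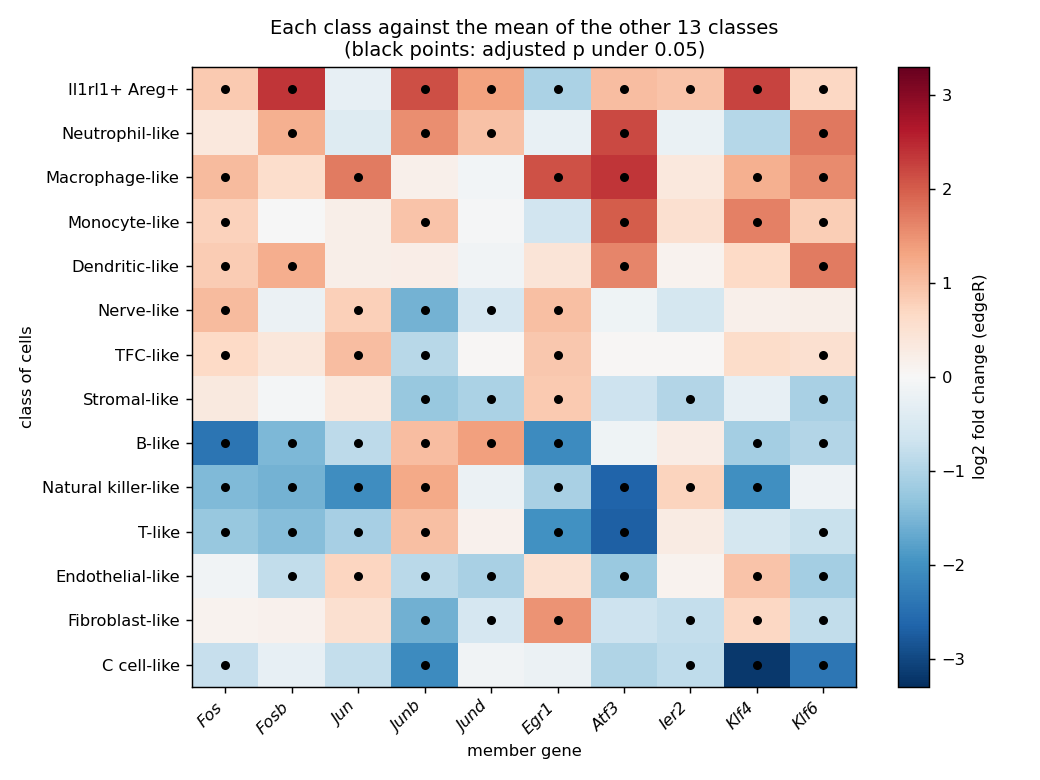
Log2 difference of each of 14 classes from the mean of the other classes for the 10 genes, with positive values meaning higher in the class. Colour gives the log2 difference and marks show calls at an adjusted p under 0.05, and macrophage-like and Il1rl1+ Areg+ cells hold 6 and 8 higher calls.

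The promoter windows below are shown because 5 members share a near match to the CREB site TGACGTCA within 250 bases before the transcript start that RefSeq's promoter entry uses. The exact letters TGACGTCA, TGACTCA and TGAGTCA, searched on both strands, and the CArG box occurred in 0 of the 8 member promoters that RefSeq provides here (Egr1 and Ier2 have no entry). Over 32851 promoters they occurred in 1.79%, 5.20%, 5.20% and 1.63%. TGACTCA and TGAGTCA are the same site read on either strand, so they count as 1 search. The promoters reached from 250 bases before to 50 bases after the start. Sites outside them, and any in Egr1 and Ier2, were not searched, so 0 of 8 is not read as a lack of such sites. With at most 1 letter changed, which was searched after the exact search was seen, TGACGTCA matched 5 of the 8 members and 10.6% of all promoters. Capitals mark that match in each 30-base window, from RefSeq on GRCm38.p6, 5′ to 3′ on the gene's strand.
Fos, chr12:85473750-85473779, plus strand: gggcgtagagtTGACGACAgagcgcccgca
Jun, chr4:95052249-95052278, minus strand: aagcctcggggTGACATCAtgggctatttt
Atf3, chr1:191183334-191183363, minus strand: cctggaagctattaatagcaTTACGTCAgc
Klf4, chr4:55532692-55532721, minus strand: agctgcctggcTGGCGTCAcggcctggccc
Klf6, chr13:5861359-5861388, plus strand: ttggtgcgagcTGACATCAtcgtcgcgcag
For Atf3 that start lies inside the gene span given below, so its window belongs to a shorter transcript. Jun and Klf6 hold the same 8 capital letters, and no other pair of these 5 does. These letters describe the windows only.

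Fos (chromosome 12, 85473890 to 85477273, plus strand, GRCm38) had its highest class mean in nerve-like cells. It was 3721, 2580 and 2576 CPM there (libraries labelled day 5, 10 and 20), and 1930, 2058, 2440 and 1176 CPM in macrophage-like cells of the 4 libraries in order of label. B-like cells held 366, 181, 188 and 146 CPM, below every nerve-like and macrophage-like value, so those groups did not overlap. Class means ran from 2959 ± 660 (SD, n = 3) in nerve-like cells through 1618 ± 213 in TFC-like, 1258 ± 357 in fibroblast-like and 483 ± 326 in T-like cells to 382 ± 37.1 in natural killer-like and 220 ± 98.8 in B-like cells (n = 4 each). Stromal-like cells ran from 450 to 3081 CPM (mean 1931 ± 1207, n = 4), which overlaps the nerve-like values. With classes ordered by their mean of log2(CPM + 5), the order used for all neighbouring gaps here, 2 of 13 gaps exceeded the larger SD, those below nerve-like and below natural killer-like cells. Nerve-like cells had no sum under day 30, the label lowest for Fos in 8 of 10 classes, so the gap below them compares unlike sets of libraries. Fos was higher in macrophage-like (1.04 ± 0.22, adjusted p = 0.000127) and nerve-like cells (1.03 ± 0.26, adjusted p = 0.00139). It was lower in B-like (-2.40 ± 0.31, adjusted p = 1.3e-08), natural killer-like (-1.46 ± 0.29, adjusted p = 6.89e-05) and T-like cells (-1.24 ± 0.28, adjusted p = 0.000224). Higher calls in dendritic-like (adjusted p = 0.677 without the library labelled day 10), Il1rl1+ Areg+ (0.0905 without day 30), monocyte-like (0.334 without day 30) and TFC-like cells (0.0556 without day 20, 0.120 without day 30), and the lower call in C cell-like cells (0.146 without day 10, 0.0658 without day 30), each ended when a library was left out.

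Fosb (chromosome 7, 19302696 to 19310051, minus strand), the closest relative of Fos, was led by Il1rl1+ Areg+ cells instead. Its levels there were 2209, 1474, 1823 and 881 CPM, against 783, 1216 and 432 CPM in dendritic-like cells (labels day 5, 10 and 20). Natural killer-like cells held 135, 220, 88.0 and 84.7 CPM, and their highest value lay under the lowest Il1rl1+ Areg+ value. Class means ran from 1597 ± 564 in Il1rl1+ Areg+ through 705 ± 55.3 in neutrophil-like (n = 3), 458 ± 86.8 in TFC-like and 256 ± 108 in endothelial-like cells to 131 ± 52.7 in B-like cells, and droplets of free RNA held 219 to 322 CPM. Fosb was higher in Il1rl1+ Areg+ cells (2.36 ± 0.21, adjusted p = 3.4e-13) and neutrophil-like cells (1.16 ± 0.30, adjusted p = 0.00188). Without the library block the neutrophil-like call ended (adjusted p = 0.0625). The dendritic-like call (1.20 ± 0.27, adjusted p = 0.000525) ended without the library labelled day 10 (adjusted p = 0.188). Fosb was lower in T-like, B-like and natural killer-like cells, by -1.40 ± 0.30, -1.48 ± 0.31 and -1.56 ± 0.32. The lower call in endothelial-like cells (-0.82 ± 0.28) ended without day 5 or day 10 (adjusted p = 0.0596 and 0.147). Fosb's share of Fos and Fosb UMIs was largest in Il1rl1+ Areg+ cells, where Fos made up 52.3% ± 11.6 (SD, n = 4), and smallest in nerve-like cells, where Fos made up 86.8% ± 3.8 (n = 3).

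Jun (chromosome 4, 95049034 to 95052222, minus strand; Junos overlaps on the other strand) had its highest class mean in macrophage-like cells. Its levels were 1420, 1937, 1753 and 1455 CPM there, 990, 1412, 1380 and 969 CPM in TFC-like cells and 95.7, 200, 183 and 125 CPM in natural killer-like cells. The natural killer-like values lay below all values of the other two classes, and the lowest macrophage-like value, 1420 CPM, lay just above the highest TFC-like value, 1412 CPM. Endothelial-like cells ran from 666 to 1916 CPM and stromal-like cells from 337 to 1770 CPM, so both overlapped the macrophage-like values. Class means ran from 1641 ± 247 (macrophage-like) over 1262 ± 365 (nerve-like, n = 3) and 905 ± 178 (fibroblast-like) to 151 ± 48.7 (natural killer-like), and 0 of 13 neighbouring gaps exceeded the larger SD. Droplets of free RNA held 449 to 497 CPM, above every natural killer-like value. Jun was higher in macrophage-like (1.71 ± 0.23, adjusted p = 1.01e-08) and TFC-like cells (1.02 ± 0.24, adjusted p = 0.000337). It was lower in natural killer-like (-2.06 ± 0.34, adjusted p = 2.31e-06) and T-like cells (-1.09 ± 0.30, adjusted p = 0.00222). Calls of Jun in B-like cells (adjusted p = 0.227, 0.124 and 0.0819 without the libraries labelled day 5, 10 and 20), endothelial-like cells (0.313 without day 20) and nerve-like cells (0.114 without day 5, 0.480 without day 10) ended when those libraries were left out.

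Junb (chromosome 8, 84974484 to 84978718, minus strand; Prdx2 overlaps on the other strand) had its highest class means in blood-cell classes and its lowest in tissue classes. Dendritic-like and macrophage-like cells were not called, and macrophage-like values (1166 to 2498 CPM) overlapped stromal-like (378 to 2020) and endothelial-like values (825 to 1741). Il1rl1+ Areg+ cells held 7675, 6653, 7695 and 6645 CPM, and natural killer-like cells held 4705, 4852, 3486 and 3449 CPM. Fibroblast-like cells held 985, 692, 1001 and 435 CPM, and C cell-like cells 1008, 329, 637 and 98.7 CPM, all below every natural killer-like value. The spread of T-like cells was wide, with 5106, 5031, 2960 and 1600 CPM. Different clusters held most T-like cells in the libraries: cycling cluster 20, with Junb at 1123 CPM under day 30, held 180 cells there and 19 under day 5, where cluster 15 held 326 cells with Junb at 5977 CPM. Class means ran from 7167 ± 598 in Il1rl1+ Areg+ through 5019 ± 1158 in neutrophil-like (n = 3), 3112 ± 183 in monocyte-like (n = 3), 2043 ± 620 in macrophage-like and 1074 ± 177 in TFC-like cells to 518 ± 394 in C cell-like cells, and 3 of 13 neighbouring gaps exceeded the larger SD. Junb was higher in Il1rl1+ Areg+ (2.13 ± 0.18, adjusted p = 2.59e-14), neutrophil-like (1.53 ± 0.22, adjusted p = 1.13e-07), natural killer-like (1.26 ± 0.19, adjusted p = 5.65e-07) and B-like cells (1.02 ± 0.20, adjusted p = 3.24e-05). Monocyte-like cells were at 0.93 ± 0.23 (adjusted p = 0.00102), which did not pass without the library block (adjusted p = 0.0583). T-like cells were at 0.99 ± 0.20 (adjusted p = 3.94e-05), but at 0.17 when cells were clustered and named again without the upper limit of UMIs, which did not pass. In that clustering T-like cells under day 5 numbered 171 in place of 441, because a cluster led by Cd163l1, Il17a and Trdc met the mastocyte markers. T-like cells also grew from 547 to 913 under day 20 and from 246 to 376 under day 30. A cluster whose leading genes included Hist1h2ap and Top2a held 560 and 330 of those cells. The part of either change in the value of 0.17 was not tested. Junb was lower in 6 classes, fibroblast-like (-1.59 ± 0.25), nerve-like (-1.55 ± 0.29), stromal-like (-1.24 ± 0.25), TFC-like (-0.91 ± 0.24), endothelial-like (-0.90 ± 0.23) and C cell-like cells (-2.08 ± 0.28, adjusted p = 2.29e-08).

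Jund (chromosome 8, 70698949 to 70700616, plus strand; Gm11175 overlaps on the other strand), the most constitutively expressed of the Jun partners, had a range of class means of 1.93 on the log2 scale. B-like cells held 2372, 2058, 2353 and 1623 CPM, Il1rl1+ Areg+ cells 2769, 1459, 2447 and 1734 CPM and endothelial-like cells 647, 445, 709 and 421 CPM. Every B-like and Il1rl1+ Areg+ value lay above every endothelial-like value, and B-like and Il1rl1+ Areg+ values overlapped. Neutrophil-like cells averaged 1679 ± 261 CPM (n = 3), and the 1 of 13 neighbouring gaps that exceeded the larger SD lay below them. Below that gap stood TFC-like cells at 955 ± 41.2, T-like at 944 ± 123, macrophage-like at 793 ± 124 and natural killer-like cells at 783 ± 108 CPM. Jund was higher in B-like (1.35 ± 0.14, adjusted p = 3.51e-11), Il1rl1+ Areg+ (1.33 ± 0.14, adjusted p = 9.13e-11) and neutrophil-like cells (0.97 ± 0.18, adjusted p = 1.54e-05). It was lower in endothelial-like (-1.08 ± 0.18, adjusted p = 1.08e-06) and stromal-like cells (-1.05 ± 0.18, adjusted p = 3.53e-06). The lower calls in fibroblast-like cells (adjusted p = 0.060 without the library labelled day 5) and nerve-like cells (0.0890, 0.0549 and 0.140 without day 5, 10 and 20) ended when those libraries were left out.

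Shares of the 3 Jun genes by class are described here without a test. Junb made up 81.4% ± 1.3 (SD, n = 4) of Jun, Junb and Jund UMIs in natural killer-like cells, 73.7% ± 3.1 in Il1rl1+ Areg+ cells and 70.0% ± 3.0 (n = 3) in neutrophil-like cells. Jun was the largest of the 3 in every library in fibroblast-like (38.2% ± 1.7), TFC-like (36.7% ± 3.1) and nerve-like cells (39.9% ± 4.7, n = 3). Its lead varied and could be close to a tie. In TFC-like cells Jun, Junb and Jund held 33.6%, 33.0% and 33.4% under day 30 and 40.2%, 30.4% and 29.3% under day 20. Jund led in every library in C cell-like cells (54.1% ± 10.5). Macrophage-like and endothelial-like cells had similar mixes, with Junb at 44.8% and 44.3%.

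**Figure D3:**
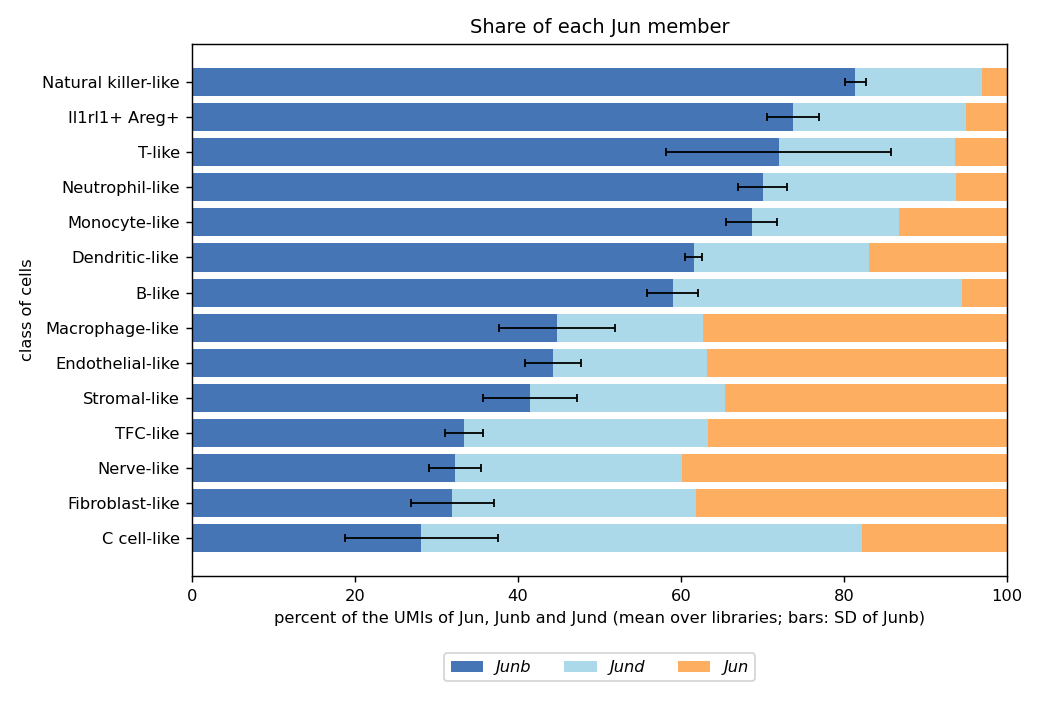
Shares of Jun, Junb and Jund among their summed UMIs in each of 14 cell classes, in percent. Bars are means over libraries with the SD of Junb as error bars, and Junb takes 81.4% in natural killer-like cells while Jun takes 38.2% in fibroblast-like cells.

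Atf3 (chromosome 1, 191170296 to 191218039, minus strand; Gm24748 overlaps on the other strand) was high in myeloid classes and low in natural killer-like and T-like cells. Macrophage-like cells held 1762, 857, 1307 and 427 CPM, and neutrophil-like cells 1151, 1282 and 785 CPM (labels day 5, 10 and 30). Natural killer-like cells held 40.8, 44.9, 48.0 and 39.9 CPM and T-like cells 150, 74.0, 9.64 and 3.11 CPM, so neither class reached the lowest macrophage-like value. B-like cells, at 104, 299, 57.0 and 254 CPM, were not called. Monocyte-like cells averaged 843 ± 52.5 CPM (n = 3), Il1rl1+ Areg+ 461 ± 135, TFC-like 255 ± 67.5 and fibroblast-like cells 181 ± 78.6, while droplets of free RNA held 113 to 194 CPM, above every natural killer-like value. Atf3 was higher in macrophage-like (2.37 ± 0.31, adjusted p = 1.22e-08), neutrophil-like (2.19 ± 0.41, adjusted p = 2.25e-05) and monocyte-like cells (2.0 ± 0.38, adjusted p = 2.86e-05). It was lower in T-like (-2.68 ± 0.51, adjusted p = 1.92e-05) and natural killer-like cells (-2.64 ± 0.56, adjusted p = 0.000178). Calls of Atf3 in dendritic-like cells (adjusted p = 0.195 without the library labelled day 10), endothelial-like cells (0.172 without day 10) and Il1rl1+ Areg+ cells (0.211, 0.0877 and 0.112 without day 10, 20 and 30) ended when those libraries were left out.

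Egr1 had its highest class means in macrophage-like and fibroblast-like cells, and stromal-like cells ran from 275 to 1632 CPM. Macrophage-like cells held 1609, 1524, 1502 and 898 CPM, fibroblast-like cells 1362, 988, 1377 and 677 CPM, and B-like cells 126, 88.1, 85.5 and 75.4 CPM. B-like values lay below all values of the other two classes, which overlapped each other. Between them lay nerve-like cells at 1025 ± 232 CPM (n = 3), TFC-like at 684 ± 177, neutrophil-like at 336 ± 148 (n = 3) and Il1rl1+ Areg+ cells at 191 ± 63.9, and droplets of free RNA held 340 to 456 CPM. Egr1 was higher in macrophage-like (2.11 ± 0.20, adjusted p = 3.88e-13), fibroblast-like (1.48 ± 0.21, adjusted p = 2.71e-08) and TFC-like cells (0.90 ± 0.22, adjusted p = 0.000578). It was lower in B-like (-2.08 ± 0.31, adjusted p = 2.49e-07) and T-like cells (-2.01 ± 0.29, adjusted p = 1.35e-07). Calls of Egr1 in Il1rl1+ Areg+ cells (adjusted p = 0.0522 and 0.0675 without the libraries labelled day 5 and day 10), natural killer-like cells (0.0704 without day 5), nerve-like cells (0.170 without day 10) and stromal-like cells (0.0514 without day 20) ended when those libraries were left out.

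Klf4 (chromosome 4, 55527143 to 55532466, minus strand), a factor of epithelial, endothelial and myeloid differentiation, had the widest range of class means, 5.23 on the log2 scale, which rests on C cell-like cells. Without that class its range was 3.82, against 4.93 for Atf3. Il1rl1+ Areg+ cells held 756, 1126, 938 and 692 CPM and endothelial-like cells 577, 325, 684 and 297 CPM. C cell-like cells held 26.7, 0, 72.4 and 17.9 CPM, all below every endothelial-like value, and the 0 of the library labelled day 10 allows up to 29.0 CPM (3 UMIs, counting error only). Monocyte-like cells averaged 568 ± 95.6 CPM (n = 3), macrophage-like 438 ± 179, fibroblast-like 365 ± 66.9, TFC-like 336 ± 133 and natural killer-like cells 56.8 ± 8.26. Klf4 was higher in Il1rl1+ Areg+ (2.22 ± 0.24, adjusted p = 9.04e-11), monocyte-like (1.67 ± 0.28, adjusted p = 3.88e-06), macrophage-like (1.18 ± 0.25, adjusted p = 0.000134) and endothelial-like cells (0.93 ± 0.26, adjusted p = 0.00239), and lower in natural killer-like (-2.02 ± 0.37, adjusted p = 2.23e-05) and B-like cells (-1.11 ± 0.33, adjusted p = 0.00644). The call in C cell-like cells (-3.20 ± 0.56, adjusted p = 6.51e-06) fell to -0.01 without the upper limit of UMIs per cell, and that in fibroblast-like cells ended without the library labelled day 20 (adjusted p = 0.0586).

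Klf6 (chromosome 13, 5861482 to 5870394, plus strand) was highest in the myeloid classes. Neutrophil-like cells held 775, 1043 and 921 CPM, macrophage-like cells 664, 784, 1011 and 579 CPM, and endothelial-like cells 154, 170, 208 and 170 CPM. Every neutrophil-like and macrophage-like value lay above every endothelial-like value. Monocyte-like cells averaged 475 ± 107 CPM (n = 3), TFC-like 446 ± 120, natural killer-like 263 ± 55.9 and fibroblast-like cells 197 ± 40.0, and 3 of 13 neighbouring gaps exceeded the larger SD. Klf6 was higher in macrophage-like (1.57 ± 0.17, adjusted p = 2.43e-11), neutrophil-like (1.74 ± 0.21, adjusted p = 1.86e-09) and dendritic-like cells (1.71 ± 0.19, adjusted p = 4.41e-10). It was lower in endothelial-like (-1.13 ± 0.21, adjusted p = 1.51e-05), stromal-like (-1.07 ± 0.22), B-like (-0.96 ± 0.22), fibroblast-like (-0.81 ± 0.21) and T-like cells (-0.73 ± 0.21). Calls of Klf6 in monocyte-like cells (adjusted p = 0.0582 without the library labelled day 30), Il1rl1+ Areg+ cells (0.167 without day 20) and TFC-like cells (0.0948 without day 10, 0.160 without day 30) ended when those libraries were left out, and that in C cell-like cells (-2.38 ± 0.32) moved to -0.26 without the upper limit of UMIs.

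Ier2 (chromosome 8, 84661331 to 84662852, minus strand) had a range of class means of 2.0 on the log2 scale, or 1.41 without C cell-like cells, and 0 of its 13 neighbouring gaps exceeded the larger SD. Il1rl1+ Areg+ cells held 806, 855, 869 and 881 CPM and fibroblast-like cells 419, 272, 351 and 258 CPM, with no overlap. Natural killer-like cells averaged 746 ± 144 CPM, endothelial-like 645 ± 147, macrophage-like 573 ± 144 and TFC-like cells 522 ± 78.1, against 294 to 350 CPM in droplets. Ier2 was higher in Il1rl1+ Areg+ (0.95 ± 0.19, adjusted p = 0.00011) and natural killer-like cells (0.75 ± 0.20, adjusted p = 0.00222; 0.0851 without the library block) and lower in fibroblast-like cells (-0.78 ± 0.22, adjusted p = 0.00219). The lower call in C cell-like cells ended without the library labelled day 10 (adjusted p = 0.0942), and that in stromal-like cells fell to -0.18 without the upper limit of UMIs.

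**Figure D4:**
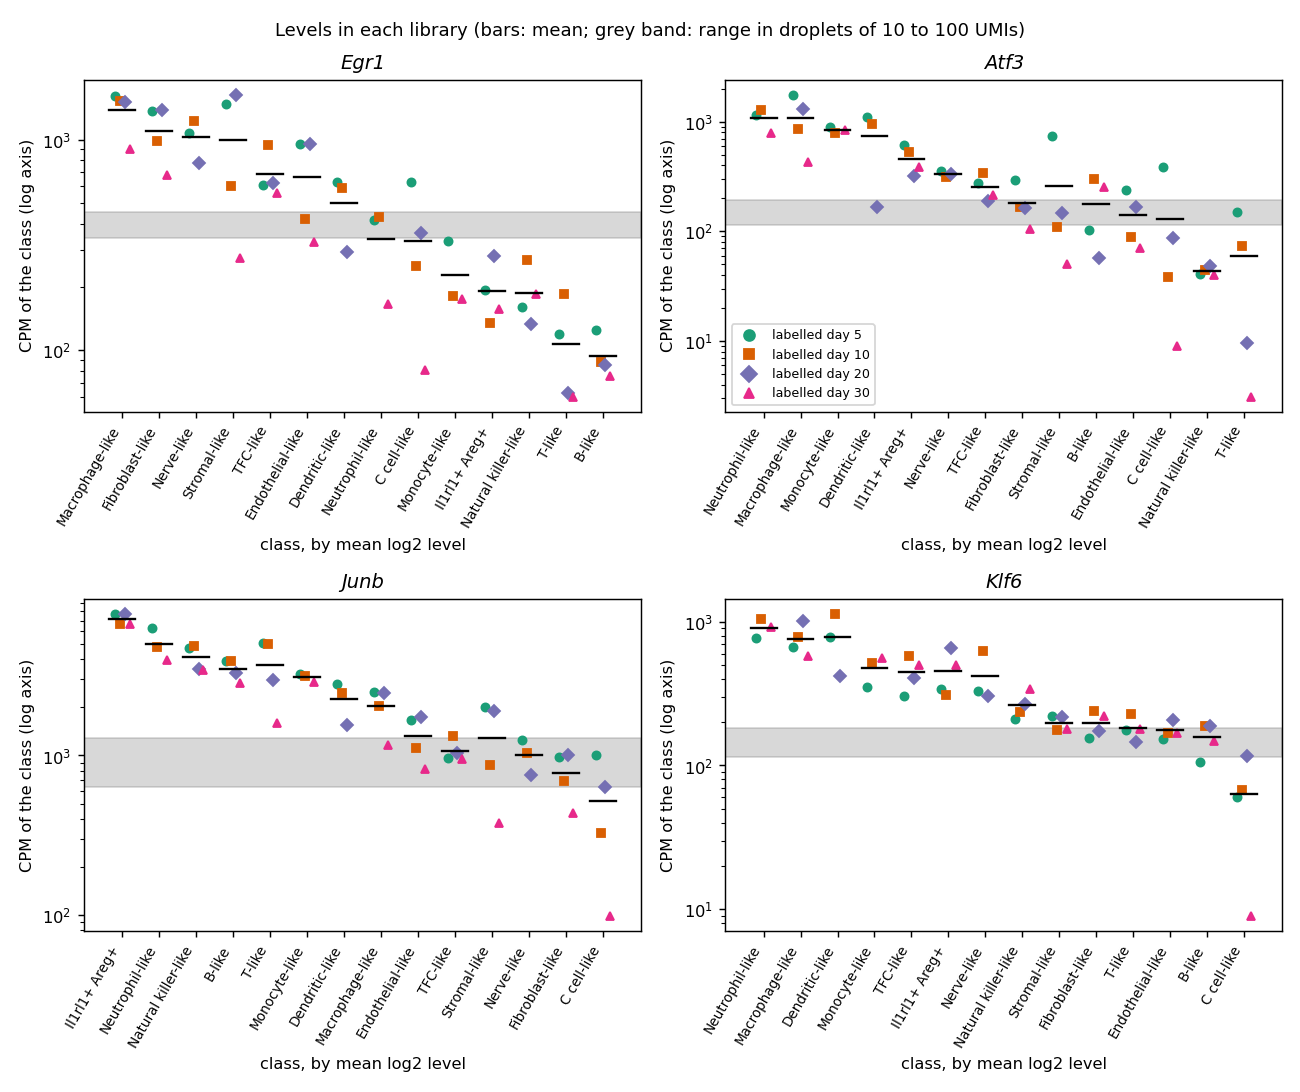
Levels of Egr1, Atf3, Junb and Klf6 in CPM (log axis) in each class, with 1 point per library, a black bar at the class mean and a grey band for the range in droplets of 10 to 100 UMIs. Macrophage-like cells sit between 898 and 1609 CPM for Egr1 while B-like cells sit between 75.4 and 126 CPM.

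Levels in some subclusters are described here without a test. In macrophage-like cells, cluster 7, marked by Ccl4 and Il1a, held Atf3 at 2551, 1188, 2020 and 524 CPM, and cluster 9, marked by Folr2 and Lyve1, held 813, 704, 707 and 367 CPM. Klf4 ran the other way, at 174, 289, 496 and 103 CPM in cluster 7 and 481, 810, 710 and 407 CPM in cluster 9, in all 4 libraries. Cluster 13 averaged 804 ± 240 CPM for Atf3 and 360 ± 150 CPM for Klf4 (n = 4). In fibroblast-like cells, clusters 3 and 24 held Atf3 at 178 ± 78.7 and 192 ± 86.9 CPM and Klf4 at 336 ± 62.8 and 584 ± 87.9 CPM (n = 4 each). In T-like cells, Klf4 was 232, 473, 455 and 114 CPM in cluster 15, which carried Trdc and Il17a, and 42.3, 107, 39.6 and 50.4 CPM in cluster 12, which carried Ccr7 and Lef1. Thymocyte-like cells, found under the labels day 20 and day 30, held Junb at 3897 and 1881 CPM and Atf3 at 6.54 and 2.67 CPM.

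Over the 52 sums, the genes closest to each member by Pearson r of log2 levels among 6575 genes were other members for 4 of 10. Fos was closest to Fosb (r = 0.81) and Egr1 (0.79), Jun to Egr1 (0.82), Atf3 to Zfp36 (0.80), Ier2 to Junb (0.78), and Junb to Coq10b (0.91). Within Fos, Fosb, Jun, Egr1, Atf3 and Klf4 the correlations ran from 0.42 to 0.82, within Junb, Jund and Ier2 from 0.43 to 0.78, and between both sets from -0.30 to 0.49. Both sets were formed from these correlations, and Klf6, left out of them, correlated with members of each (Atf3 0.70, Fos 0.55, Junb 0.52, Ier2 0.44). The sums share classes and libraries, so these are descriptions.

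Related lists are given beside the shares of all genes, 24.7% higher and 11.6% lower. Of class differences, 29.1% were higher and 18.1% lower in 13 AP-1 family genes outside the members, 36.3% and 31.9% in 36 other immediate-early genes, 28.6% and 23.6% in 13 heat-shock genes, and 22.8% and 17.4% in 16 upstream kinases and factors. In the family list, Jdp2, a repressor that pairs with Jun proteins, averaged 327 ± 28.5 CPM in neutrophil-like cells and 1.74 CPM in B-like cells. Of the others, Tnfaip3, an inhibitor of NF-κB, averaged 951 ± 257 CPM in Il1rl1+ Areg+ cells, Hspb1, a small heat-shock protein, 1078 ± 299 CPM in endothelial-like cells, and Elk3, an SRF partner, 285 ± 38.2 CPM in endothelial-like cells.

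Free RNA, measured in barcodes of 10 to 100 UMIs, held single members at levels that some classes did not exceed. Summed over members, these droplets held 3924 ± 339 CPM (SD, n = 4), C cell-like cells 3420 ± 2303 CPM and Il1rl1+ Areg+ cells 15859 ± 1619 CPM. Only C cell-like cells had a summed mean below the droplets, and the next lowest was that of fibroblast-like cells at 6244 ± 1478 CPM. All kept cells against droplets in the same test (8 sums, 13662 genes) gave 3 of 10 members higher (background 19.9%), Junb (0.72 ± 0.12, adjusted p = 0.0025), Jund (0.57 ± 0.14, adjusted p = 0.0126) and Klf6 (0.40 ± 0.13, adjusted p = 0.0394), and 0 lower, with 0 lower at an unadjusted p under 0.05 and 0 lower by DESeq2. Jund ended without the library labelled day 20 (adjusted p = 0.0676), Klf6 when any 1 of the 4 was left out (0.0504 to 0.142), and Fosb became lower (-0.63, adjusted p = 0.0125) without day 5. In CPM, which is not TMM-scaled as the test is, macrophage-like cells exceeded the droplets in every library for 10 of 10 members. TFC-like cells did so for 9 and C cell-like and stromal-like cells for 0. Without TMM, 7148 of 13662 genes were higher in all kept cells than in droplets. No share over all genes was formed for each class, so these counts are not read as a result about the members.

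Shares of cells with a UMI were read against the share that the droplets' composition gives at 1000 UMIs, the free-RNA share. Cells were thinned to 1000 UMIs and shallower cells were left out, which were 4, 0, 0 and 0 natural killer-like and 77, 50, 10 and 17 macrophage-like cells in order of label. TFC-like cells went from 1517, 378, 149 and 288 to 1514, 279, 115 and 194. Dendritic-like cells under day 20 then numbered under 20 and gave no share. After thinning, Junb was detected in 92.0% ± 5.8 (SD, n = 4) of natural killer-like cells, and Atf3 in 43.5% ± 13.6 of macrophage-like against 4.5% ± 2.6 of natural killer-like cells. A class and library share was counted as above or below the free-RNA share only where its whole 95% binomial interval was. Of 51 shares, 35 were above and 0 below for Jund, and 28 above and 6 below for Ier2. Fos had 10 above and 25 below. These intervals treat cells of 1 library as independent. The free-RNA share takes UMIs as spread evenly over cells, so a share below it need not mean a lower CPM. In CPM, Fos exceeded the droplets in 4 of 4 libraries in TFC-like and endothelial-like cells. It did so in 0 of 4 in natural killer-like and B-like cells. Within classes and libraries, cells with 1 member held another more often than the single shares multiply to. The median ratio was 1.85 in TFC-like cells (156 of 158 pair and library values above 1), 1.46 in fibroblast-like, 1.24 in macrophage-like and 1.05 in natural killer-like cells (52 of 74 above 1). Among pairs, Egr1 with Atf3 had a median ratio of 1.80 and Fos with Jund 1.05. A ratio cannot exceed 1 over the larger single share, which holds it near 1 where a member was found in most cells, as Junb in natural killer-like cells. Pairs with few expected cells were left out, so each class and pair rests on its own set of values. The ratios are therefore not compared between classes or pairs.

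Levels differed with depth and mitochondrial share in some classes. Summed levels were higher in cells with up to 2.5% mitochondrial UMIs than with 5 to 10% in all 4 libraries in endothelial-like (ratio 1.53 to 2.07), fibroblast-like (1.43 to 4.09), macrophage-like (1.14 to 2.24) and TFC-like cells (1.20 to 3.06), and in 1 of 2 in T-like cells. Cells of 3000 to 10000 UMIs exceeded those of 1000 to 3000 UMIs in 4 of 4 libraries in TFC-like (1.42 to 2.10) and endothelial-like cells (1.38 to 2.51), in 2 of 2 in fibroblast-like (1.18 to 1.75), in 3 of 4 in macrophage-like (0.616 to 5.36) and in 1 of 3 in T-like cells (0.656 to 1.21). Under the labels day 20 and day 30, TFC-like cells were highest in the middle range, 2.5 to 5%. The part of either in the class differences was not tested.

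**Figure D5:**
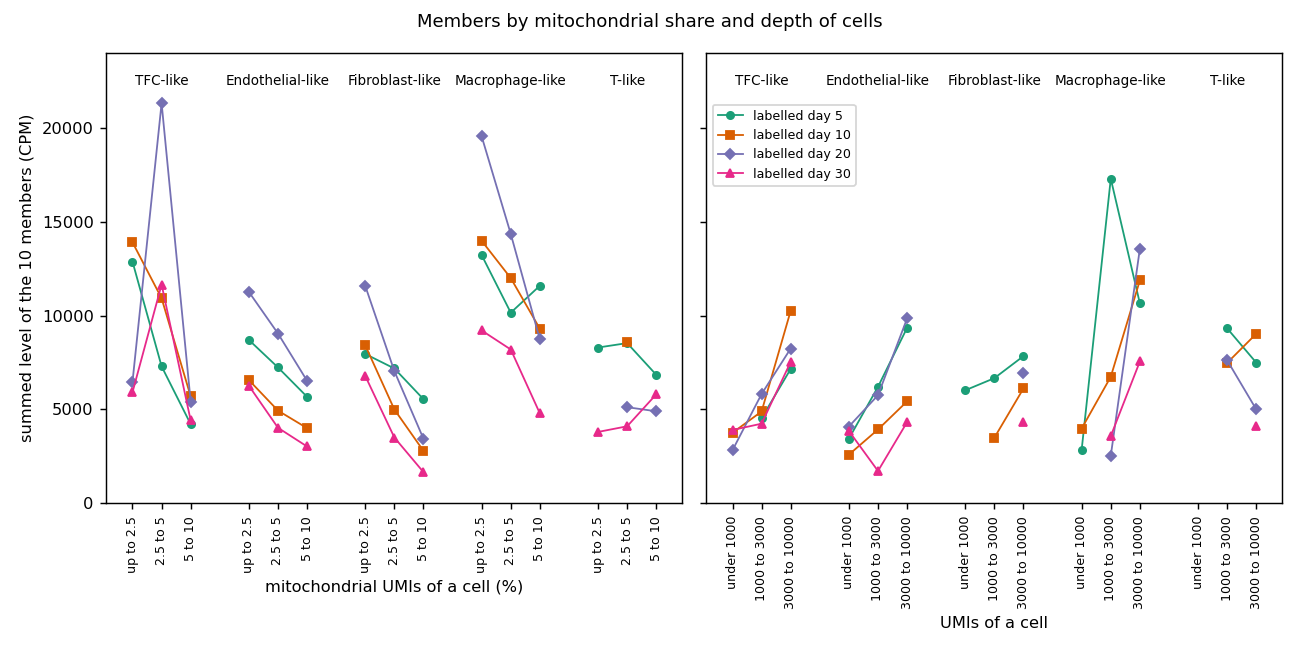
Summed CPM of the 10 members in cells split by UMIs and by mitochondrial percent, within classes, with 1 line per library. In TFC-like cells the level at up to 2.5% lies above that at 5 to 10% in all 4 libraries.

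Most of the variation in the members went with the class and less with the library. Over 10 classes in all libraries, the class took a median of 78.8% of the sum of squares of log2(CPM + 5), the library 10.3%, and 14.6% was left, against 75.3%, 3.68% and 18.7% for 6560 genes. The library took 18.5% for Fosb and 1.47% for Jun. The library labelled day 30 was lowest in 68 of 100 member and class pairs, in 10 of 10 classes for Fosb and for Junb, and in 8 for Fos and for Egr1. Without that library, the library's share had a median of 1.92% and the class's 87.2%. Neither this order nor these shares were set beside those of all genes, so they are not read as a result about the members. Barcodes over the upper limit of UMIs were 1878 of 15297, 1907 of 7843, 1277 of 7808 and 2153 of 6555 listed, in order of label. The part of that limit in the order of libraries was not tested. With 1 library per label, age and library cannot be told apart.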

How the data were processed

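Thyroid tissue of 4 libraries was measured by droplet single-cell RNA sequencing. The authors aligned reads to the mouse mm10 genome with CellRanger and deposited raw UMI counts for every barcode, with 1 matrix per library. The strand setting of the counting is not given in the sources used here, so 4 members with a gene on the other strand (Jun, Junb, Jund, Atf3) could include its reads.

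The authors also deposited a table of cell barcodes whose group numbers the sources do not explain, so each listed barcode was taken from the library in which it had the most UMIs. Those barcodes were kept with 200 to 10000 UMIs, at most 10% mitochondrial and at most 5% hemoglobin UMIs. The 6% of cells with the highest Scrublet scores were removed from each library, because the automatic threshold marked 5.49%, 0.766%, 0.0370% and 0.389%. Libraries were integrated with Seurat 5.3.0 and sctransform 0.4.2, clustered without the members and lists, and named by markers. Cells of a cluster stayed unnamed in a library where the class's summed markers were under 10% of the level in another library, a rule settled after the clusters were seen. The members and lists were chosen with earlier results of these data known. UMIs were summed per class and library (at least 20 cells, at least 3 libraries), and tested with edgeR 4.0.16 (TMM, quasi-likelihood) in R 4.3.3, or DESeq2 1.42.0 as an alternative. On simulated data with 10284 genes for TFC-like against the other classes, 74% of 2-fold and 100% of 4-fold changes were recovered, with 6 false calls. Only this contrast was simulated, so these rates do not cover classes with fewer UMIs or with 3 libraries. The 10 members are all named; from each related list, genes were taken by their largest difference between class means. Totals per library were 54921806 to 89039113 UMIs, and intervals and floors cover counting error only. Alternatives changed the test, scaling, filters, limits, naming and libraries used. 1 gene of the related lists is not reported here.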

Additional observations from a re-analysis of the deposited data

How the results depend on the processing

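Of 85 class calls, 51 passed the threshold in the same direction in all 14 alternatives, 3 in nerve-like and dendritic-like cells did so in the 12 or 13 that left enough cells of their class, and 31 did not in at least 1. Counts of class calls ran from 37 to 51 higher and 34 to 49 lower over the alternatives, and from 39 to 46 and 34 to 40 when each library was left out. Without the library block, which pairs class sums by library, there were 37 higher and 35 lower class calls. In that setting 0 members were higher than droplets, where 43 of 13662 genes were. Naming clusters alike in all libraries was chosen after seeing the data, and of 140 class differences it ended 5 calls, added 5 and reversed none. Against droplets, 8 members were higher without TMM, where 7148 of 13662 genes were higher. With all barcodes taken as cells 8 members were higher, where 2893 of 15627 genes were. When a library was left out, 1 to 2 members were higher and 0 to 1 lower, where 1756 to 2374 genes were higher and 1591 to 2108 lower. Without TMM the median of all genes moved from 0.06 to 0.61 against droplets, and Fos moved from -0.05 to 0.50. With all barcodes taken as cells Fos was 0.43 and Egr1 moved from -0.07 to 0.52. Without the upper limit of UMIs, C cell-like cells changed sign for Fosb (-0.27 to 0.96), Fos (-0.76 to 0.29) and Egr1 (-0.21 to 1.24), as did the class meeting the mastocyte markers for Klf6 (0.67 to -0.17). That setting clusters and names cells again, and under day 5 that class grew from 239 to 580 cells by a cluster with T markers at 5831 against 2012 CPM of its own, so the limit and the membership cannot be told apart. The class share of the variation ran from 75.5% to 87.2% when a library was left out. The median share of cells with a UMI was 33.4% after thinning to 1000 UMIs, 49.3% after thinning to 2000 and 54.4% without thinning, by construction. For the other changes the cause was not tested. The all-gene median of neutrophil-like cells was -1.03, and -0.03 by DESeq2, and their differences are given without correction for it. C cell-like cells numbered 184 (median 1988 UMIs), which limits their levels. Clustered again without the upper limit of UMIs, they numbered 421 (median 10170 UMIs). TFC-like cells numbered 2332 (median 5819 UMIs), and without that limit their largest cluster held 3674 (median 10670 UMIs). Levels of both classes thus describe their shallower cells.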
